A study of Mus musculus with 8 samples.

Results

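The circadian clock of mouse liver was read here through 10 genes: Arntl, Npas2, Per1, Per2, Per3, Cry1, Dbp, Nr1d1, Nr1d2 and Ciart. They were chosen by name from the core loop and its closest outputs, with earlier results of these data known. Clock and Cry2 are among the further core genes below. The Illumina bead array held 16593 genes on 25697 probes, and 16 probes were annotated to the 10. The main probe of a gene was the one with the highest mean signal. Main probes of 8 of the 10 passed the filter on dim probes and were among the 9766 genes tested, while those of Npas2 and Cry1 did not.

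The arrays came from male mice of 10 to 12 weeks that had been gavaged for 7 days, 2 times a day. The groups were Fxr-/- with GW4064 at 30 mg/kg (2 arrays), Fxr-/- with vehicle (1 usable array), Fxr+/+ with GW4064 at the same dose (2 arrays) and Fxr+/+ with vehicle (2 arrays). GW4064 is a small molecule that activates FXR, the nuclear receptor for bile acids encoded by Nr1h4. Each array held liver RNA pooled from 3 to 4 animals, and p-values measure the spread between such pools. The labels give neither the strain nor the time of day of tissue collection.

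The clock is a feedback loop of transcription. The ARNTL (BMAL1) protein, with CLOCK or NPAS2 as its partner, binds E-box sequences and turns on the Per and Cry genes, whose proteins then shut off their own activators. The same complex drives Nr1d1 and Nr1d2, whose products REV-ERB-alpha and REV-ERB-beta repress Arntl and Npas2 through ROR elements, and it drives the outputs Dbp and Ciart. In mouse liver Arntl and Npas2 peak around the end of the night and Cry1 late in the night. Nr1d1, Nr1d2, Dbp, Ciart and Per3 peak during the day, and Per1 and Per2 towards dusk. Genes of the first and second of these sets therefore run nearly in antiphase, and the values below are ordered by these roles.

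Promoters of the genes on which the results turn are shown first, since the members differ in the clock elements near their start sites. Each window covers 250 bases before to 50 bases after a RefSeq start site of assembly GRCm38.p6, written 5' to 3' on the strand of the gene. The table matched 9 of the 10 members, Per2 being the one without an entry, and held 11 windows for them. Capitals mark matches to the motifs searched on both strands, which were the E-box CACGTG, the E-box variant CACGTT, the D-box sequences TTATGTAA and TTACGTAA, the ROR element cores TAGGTCA and TGGGTCA, and the inverted repeat that FXR binds. The last of these can overlap a ROR core and had no match in the windows of the members (0.00913% of all windows hold it).
Ciart, chr3:95882179-95882478, - strand: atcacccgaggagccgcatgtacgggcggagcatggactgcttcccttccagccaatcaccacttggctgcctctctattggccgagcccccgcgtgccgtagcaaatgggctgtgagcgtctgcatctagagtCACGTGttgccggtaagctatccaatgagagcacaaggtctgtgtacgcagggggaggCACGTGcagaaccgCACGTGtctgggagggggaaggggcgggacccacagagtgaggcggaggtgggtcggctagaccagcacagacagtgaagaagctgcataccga
Dbp, chr7:45704997-45705296, + strand: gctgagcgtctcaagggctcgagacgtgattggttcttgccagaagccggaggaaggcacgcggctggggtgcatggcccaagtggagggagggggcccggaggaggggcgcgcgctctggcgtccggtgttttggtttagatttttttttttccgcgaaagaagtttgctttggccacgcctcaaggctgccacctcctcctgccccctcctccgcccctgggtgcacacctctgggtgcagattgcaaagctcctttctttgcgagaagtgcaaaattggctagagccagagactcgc
Nr1d1, chr11:98775328-98775627, - strand: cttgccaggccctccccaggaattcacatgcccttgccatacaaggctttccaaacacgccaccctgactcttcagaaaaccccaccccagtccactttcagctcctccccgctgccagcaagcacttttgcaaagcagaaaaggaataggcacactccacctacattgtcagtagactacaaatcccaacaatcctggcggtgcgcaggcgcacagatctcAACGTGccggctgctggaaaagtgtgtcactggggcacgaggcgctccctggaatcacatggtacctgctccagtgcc
Per3, chr4:151044616-151044915, - strand: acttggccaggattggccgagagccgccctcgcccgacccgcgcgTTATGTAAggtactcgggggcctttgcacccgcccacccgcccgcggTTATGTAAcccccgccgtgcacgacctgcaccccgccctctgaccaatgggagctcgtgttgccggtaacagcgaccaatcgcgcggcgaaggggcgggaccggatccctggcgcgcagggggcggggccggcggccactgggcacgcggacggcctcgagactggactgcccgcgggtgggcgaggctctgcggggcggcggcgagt
Arntl, chr7:113207261-113207560, + strand: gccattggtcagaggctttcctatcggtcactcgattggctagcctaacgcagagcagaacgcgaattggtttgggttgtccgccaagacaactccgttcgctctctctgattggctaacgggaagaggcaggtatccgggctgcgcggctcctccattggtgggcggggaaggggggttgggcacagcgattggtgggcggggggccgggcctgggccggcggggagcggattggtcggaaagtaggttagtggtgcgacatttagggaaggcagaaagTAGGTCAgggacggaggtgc

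Ciart held 3 matches to CACGTG, which 7.15% of 32851 RefSeq windows of this length hold at least once and 0.0883% at least 3 times. Per3 held 2 matches to TTATGTAA, a sequence found at least once in 0.938% of windows and at least 2 times in 0.0213%. The window of the second Arntl start site held 1 match to TAGGTCA (2.61% of windows), after the start site, and the window of its first start site none. Nr1d1 held 1 match to CACGTT on the opposite strand, printed as AACGTG (4.68% of windows). Of the windows not shown, Cry1 held 1 CACGTG and 1 CACGTT, and 1 of the windows of Per1 held 1 CACGTG. Neither Dbp, Npas2 nor Nr1d2 held any of these letters in its window, which says nothing of sites elsewhere.

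The state of the arrays bears on all values. Nr1h4, the targeted gene, had signals of 2048.3 and 1851.9 in arrays labelled Fxr-/- with GW4064 and 3271.6 in the one with vehicle, against 3327.7 and 3483 in Fxr+/+ with GW4064 and 3958.8 and 4411.4 in Fxr+/+ with vehicle. It was not lost, and whether its probe lies in the deleted part of the gene is not known here, so genotypes are given as labelled. Hepatocyte markers were strong on every array, with summed signals of 69286.3 to 86585.2 in Fxr-/- GW4064, 94125 in Fxr-/- vehicle, 97429.6 to 99071 in Fxr+/+ GW4064 and 88957.2 to 102883.1 in Fxr+/+ vehicle. The 4 of 6 macrophage markers on the array, with Cd5l within the background, summed to 826.8 to 829.2 in Fxr-/- GW4064, 1020.9 in Fxr-/- vehicle, 1355 to 1573 in Fxr+/+ GW4064 and 1370.1 to 1439.8 in Fxr+/+ vehicle. The 5 of 6 lymphocyte markers, with Cd79a and Ptprc within the background, summed to 126.3 to 143 in Fxr-/- GW4064, 187.1 in Fxr-/- vehicle, 383.3 to 468.9 in Fxr+/+ GW4064 and 255.2 to 362.3 in Fxr+/+ vehicle. Bile duct markers, 3 of 4 on the array with Krt19 within the background, ran the other way, at 138.2 to 182.7 in Fxr-/- GW4064, 128.3 in Fxr-/- vehicle, 75.4 to 94.5 in Fxr+/+ GW4064 and 110.3 to 125.4 in Fxr+/+ vehicle. The 6 endothelial markers, with Kdr within the background, summed to 1948.1 to 3160.9 in Fxr-/- GW4064, 3968.8 in Fxr-/- vehicle, 3220.2 to 3581.7 in Fxr+/+ GW4064 and 3605.1 to 3733.3 in Fxr+/+ vehicle. Pancreatic acinar markers, 3 of 4 on the array with Cpa1 within the background, stood at 714.7 to 1111.2 in Fxr-/- GW4064, 1590.8 in Fxr-/- vehicle, 834.4 to 835.9 in Fxr+/+ GW4064 and 803.6 to 855.5 in Fxr+/+ vehicle. The part of these cells in the results was not tested.

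Ciart, a repressor of the ARNTL complex that is itself one of its strongly rhythmic targets, showed the largest difference between genotypes among the 8 tested members. Its signal was 137.8 and 150 in Fxr-/- GW4064 arrays and 161.3 in the Fxr-/- vehicle array, against 441.3 and 585.3 in Fxr+/+ GW4064 and 527.4 and 735.5 in Fxr+/+ vehicle. All 3 arrays labelled Fxr-/- lay below all 4 Fxr+/+ arrays, with little spread among them, an order that 16% of all genes tested showed. Averaged over treatments, Ciart fell by 1.78 on the log2 scale (SE 0.189, limma adjusted p = 0.000712), and it was lower under vehicle (log2 change -1.85, SE 0.292, adjusted p = 0.0113) and under GW4064 (-1.71, SE 0.239, adjusted p = 0.00372). In bulk liver, fewer cells that express a gene and less RNA per cell cannot be told apart. The second Ciart probe read 93.7 and 56.7 in Fxr-/- GW4064, 61.5 in Fxr-/- vehicle, 380.6 and 556.3 in Fxr+/+ GW4064 and 503.3 and 692.2 in Fxr+/+ vehicle. Its averaged log2 change was -2.69 (SE 0.238, adjusted p = 0.000556 over 13218 probes), so both probes separated the genotypes. The averaged call held when any one of the 6 arrays that could be left out was omitted (adjusted p between 0.00134 and 0.00427). With no filter on dim probes the calls under vehicle and under GW4064 were lost (adjusted p = 0.0839 and 0.0735), while the averaged one was kept (0.025).

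**Figure D1:**
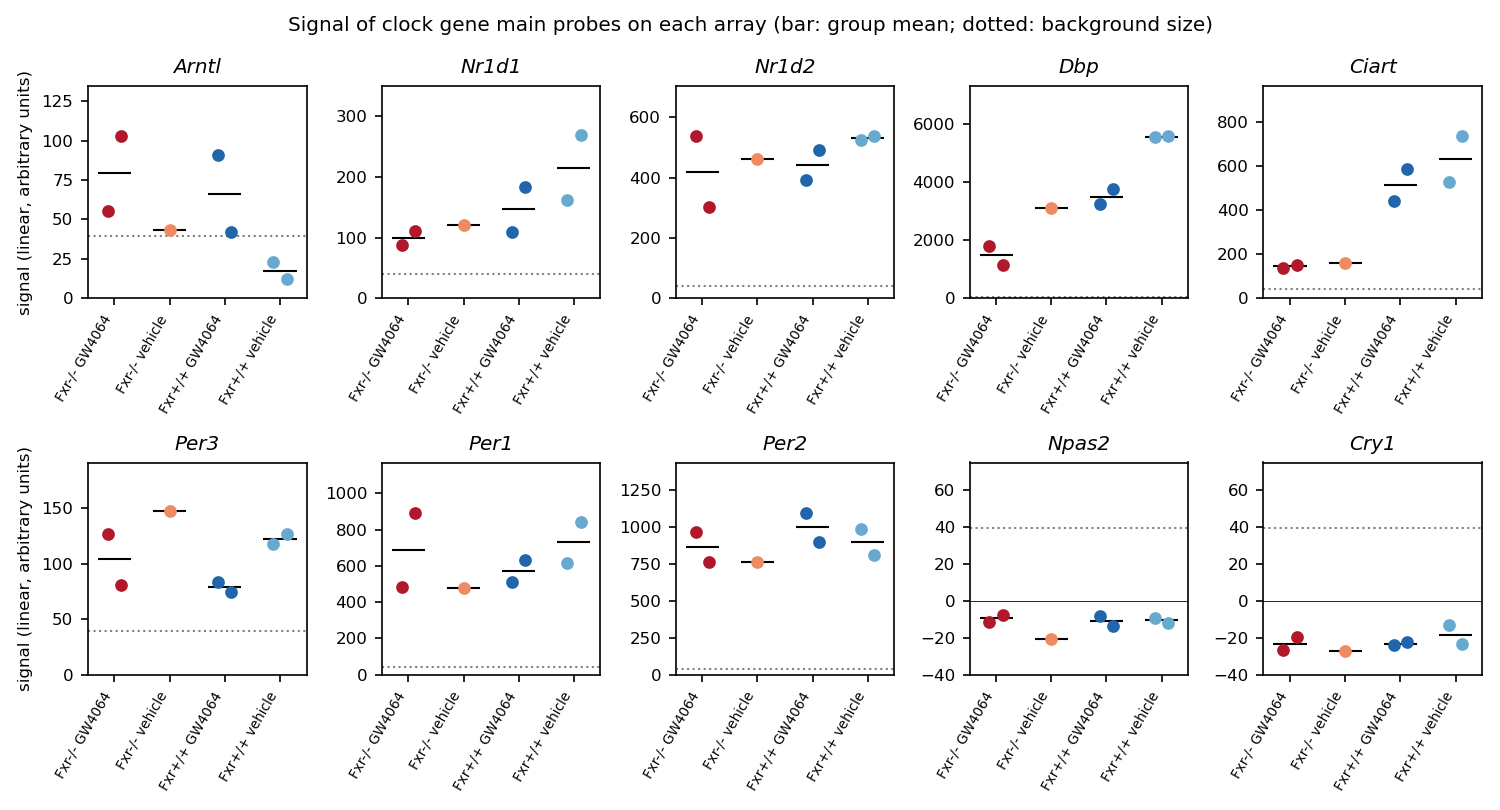
Signal (linear, arbitrary units) of the main probe of each of the 10 clock genes on each of the 7 arrays, by group, with group means as bars and the size of the background, 39.5, as a dotted line. Ciart and Dbp show the arrays labelled Fxr-/- below every Fxr+/+ array, and Npas2 and Cry1 lie below 0 throughout.

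Dbp, a PAR-bZIP activator that binds D-boxes in metabolic genes and a direct ARNTL target, was the brightest clock probe. It read 1803.5 and 1141.8 in Fxr-/- GW4064, 3098.8 in Fxr-/- vehicle, 3223.1 and 3749.3 in Fxr+/+ GW4064 and 5541.2 and 5566.5 in Fxr+/+ vehicle. The arrays labelled Fxr-/- were again all below the Fxr+/+ arrays. Here the GW4064 arrays were also below the vehicle arrays of the same genotype, in Fxr-/- as 2 arrays against 1, which did not pass in either genotype. Averaged over treatments, Dbp fell by 1.05 on the log2 scale with the Fxr-/- label (SE 0.198, adjusted p = 0.00901), an interval of -1.51 to -0.59 at 95%. Under GW4064 alone the log2 change was -1.27 (SE 0.25, adjusted p = 0.0154), and under vehicle, with 1 array labelled Fxr-/-, it was -0.84 and did not pass (SE 0.306, adjusted p = 0.147). The call under GW4064 was lost without Fxr+/+ GW4064 replicate 1 (adjusted p = 0.0661) or 2 (0.111) or Fxr-/- GW4064 replicate 2 (0.0695). The averaged call was kept in all 6 such fits, with adjusted p up to 0.0388, but was lost with no filter on dim probes (0.0801).

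Nr1d1 and Nr1d2, the REV-ERB repressors of Arntl, did not pass in any comparison through their main probes. Nr1d1 read 87.6 and 110.9 in Fxr-/- GW4064, 120.3 in Fxr-/- vehicle, 109.4 and 183.7 in Fxr+/+ GW4064 and 161.4 and 268.8 in Fxr+/+ vehicle. The arrays labelled Fxr-/- were at the low end, with an overlap under GW4064. Its averaged log2 change between genotypes was -0.59 (SE 0.247, adjusted p = 0.129). A dimmer second probe of Nr1d1 was above the background only on the 2 Fxr+/+ vehicle arrays, where it read 58.5 and 81.7. Against that bound it was at least 1.75-fold lower in Fxr-/- than in Fxr+/+ under vehicle, which did not pass (adjusted p = 0.077 over 13218 probes). Averaged over treatments this second probe of Nr1d1 was at least 1.14-fold lower in Fxr-/- and passed narrowly (limma adjusted p = 0.0499 over 13218 probes). Nr1d2 ranged from 300.8 to 538 over the 7 arrays. Its averaged change of -0.16 (SE 0.225, adjusted p = 0.65) had an interval of -0.68 to 0.37. Its second probe was within the background on 6 of 7 arrays, the other being the Fxr-/- vehicle array at 67.4. By that array it was at least 1.71-fold higher in Fxr-/- than in Fxr+/+ under vehicle, and did not pass. The main probe of Nr1d2 had a log2 change of -0.20 in the same comparison.

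**Figure D2:**
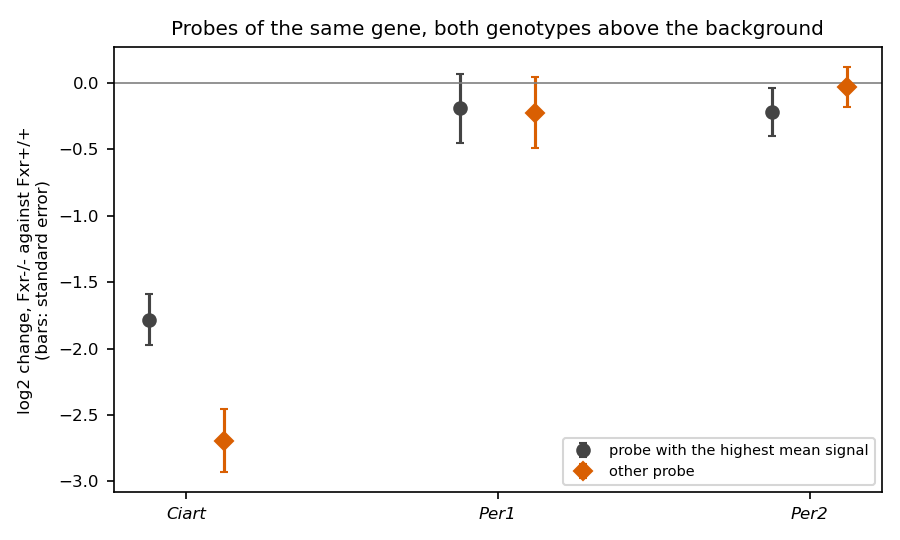
Log2 change between Fxr-/- and Fxr+/+ arrays, averaged over treatments, for the probes of the 3 genes (Ciart, Per1 and Per2) with more than 1 probe above the background in both genotypes, with standard errors as bars. Both probes of Ciart lie far below 0 (-1.78 and -2.69), and those of Per1 and Per2 between -0.22 and -0.03.

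The 3 Period genes, which encode the repressors of the loop, did not pass in any comparison. Per3 read 126.9 and 81.2 in Fxr-/- GW4064, 147.7 in Fxr-/- vehicle, 83.4 and 74.4 in Fxr+/+ GW4064 and 117.5 and 126.5 in Fxr+/+ vehicle. The highest array was the one of Fxr-/- vehicle, and the averaged log2 change between genotypes was 0.28 (SE 0.183, adjusted p = 0.309). Per1 read 482 and 893.9 in Fxr-/- GW4064, 476 in Fxr-/- vehicle, 513.4 and 633.6 in Fxr+/+ GW4064 and 614.4 and 844.2 in Fxr+/+ vehicle. Replicates of a group differed here by nearly as much as all arrays did, and the averaged change was -0.19 (SE 0.251, adjusted p = 0.619). Per2, which responds to feeding and temperature as well as to the clock, ranged from 758.2 to 1094.4, with a change of -0.22 (SE 0.176, adjusted p = 0.408). The second tested probe of Per2 had an averaged change of -0.03 (SE 0.149), and the dimmest probe of Per2, from -15.1 to 7.7, was not tested.

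Arntl, the activator whose peak opposes that of Dbp and Nr1d1, lay near the limit of the array. Its signal was 55.1 and 103.2 in Fxr-/- GW4064, 43.5 in Fxr-/- vehicle, 91 and 41.7 in Fxr+/+ GW4064 and 22.6 and 12.2 in Fxr+/+ vehicle. Both Fxr+/+ vehicle arrays were below 39.5, the size of the most negative signal in the table, so only a bound can be given against them. With values below that size set to it, Arntl was at least 1.10-fold higher in Fxr-/- than in Fxr+/+ under vehicle (adjusted p = 0.289) and at least 1.56-fold higher with GW4064 than with vehicle in Fxr+/+ (adjusted p = 0.787), and neither passed. Under GW4064 the 2 genotypes overlapped (log2 change 0.23, SE 0.366, adjusted p = 0.733). The other genes of this phase gave no reading. Npas2, the alternative partner of ARNTL, lay between -20.6 and -7.7, and Cry1, a repressor, between -27.3 and -13.2. Neither was tested and no fold is given.

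Counted over the 8 tested members, 2 were lower and 0 higher in Fxr-/- averaged over treatments (limma adjusted p under 0.05), and 6 did not pass. Over all 9766 genes 12.6% were lower and 9.73% higher by the same test, so 2 of 8 is a small count beside a common difference. Under GW4064, 2 of 8 members were lower, against 9.14% of all genes, and under vehicle 1 of 8, Ciart, against 5%. The median log2 change of the 8 members averaged over treatments was -0.20, against 0.06 over all genes, and 6 of the 8 were below 0, against 45% of all genes.

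**Figure D3:**
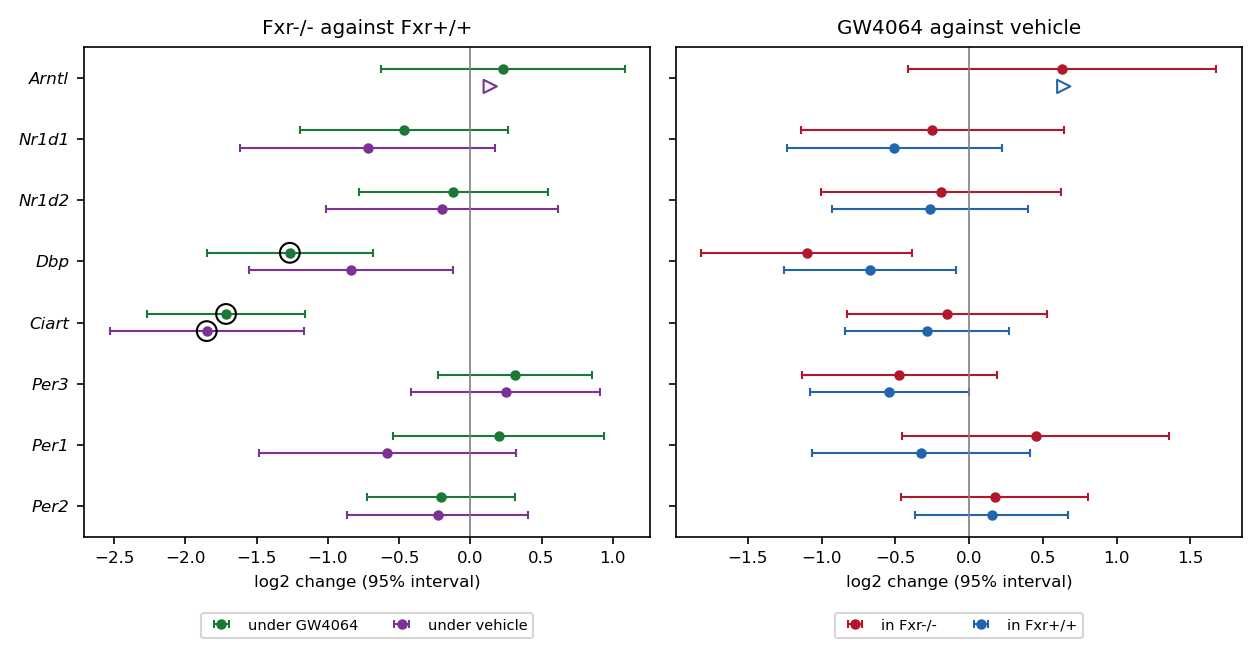
Log2 change of the 8 tested clock genes with 95% intervals, for Fxr-/- against Fxr+/+ under each treatment (left) and GW4064 against vehicle in each genotype (right), with circles around values with an adjusted p under 0.05. Open triangles are lower bounds for Arntl, where Fxr+/+ vehicle was within the background. The circled values are Ciart under both treatments and Dbp under GW4064, all between genotypes, and none is circled for GW4064 against vehicle.

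For GW4064 against vehicle no clock gene passed in limma, either in Fxr-/-, where 0.0717% of all genes did, or in Fxr+/+, where 0.0205% did. At an unadjusted p under 0.05 there was 1 member in Fxr-/-, against 9.78% of all genes, and 3 in Fxr+/+, against 5.06%. These counts are through main probes, and no second probe of a member passed either. The dim second probe of Nr1d1 was at least 1.75-fold lower with GW4064 in Fxr+/+. That of Nr1d2 was at least 1.71-fold lower with GW4064 in Fxr-/-, by its 1 vehicle array. Dbp had a log2 change of -1.10 in Fxr-/- (SE 0.306, adjusted p = 0.282) and -0.67 in Fxr+/+ (SE 0.25, adjusted p = 0.968), with the GW4064 arrays below the vehicle arrays in both genotypes. In Fxr-/- that order sets 2 arrays against 1, which a gene without any change can easily show. Averaged over genotypes the change of Dbp was -0.89 (SE 0.198, adjusted p = 0.209). In the same average Per3 had -0.51 (SE 0.183, adjusted p = 0.429). Arntl did not pass in it (adjusted p = 0.333), and no size is given because 2 of its 3 vehicle arrays were within the background. Ciart, which separated the genotypes, had -0.22 (SE 0.189, adjusted p = 0.835). Across the genome 0.0922% of genes passed for this average, and no member did, with 3 at an unadjusted p under 0.05 against 9.58% of all genes. No gene passed for the difference of the GW4064 effect between genotypes in limma, where 6.18% had an unadjusted p under 0.05, and no member was among these.

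Whether the groups differed in clock phase was examined by setting the dawn genes (Arntl, Npas2 and Cry1) against the day genes (Nr1d1, Nr1d2, Dbp, Ciart and Per3), each centred on its mean over the 2 Fxr+/+ vehicle arrays. On the log2 scale the mean of the day genes was -0.94 and -1.27 in Fxr-/- GW4064, -0.67 in Fxr-/- vehicle, -0.60 and -0.31 in Fxr+/+ GW4064 and -0.13 and 0.13 in Fxr+/+ vehicle. This mean was below both Fxr+/+ vehicle arrays on each of the other 5 arrays, but not every gene in it was. Per3 was above both, at 0.05 on Fxr-/- GW4064 replicate 1 and 0.25 on the Fxr-/- vehicle array. Nr1d2 on Fxr-/- GW4064 replicate 1 was level with the higher of the Fxr+/+ vehicle arrays. On Fxr+/+ GW4064 replicate 2, Nr1d1 (-0.17) and Ciart (-0.09) lay between the 2 Fxr+/+ vehicle arrays. Arntl was within the background on both Fxr+/+ vehicle arrays, so its log2 difference from them is known only as a bound. With signals below 39.5 set to it, that bound was at least 0.48 and 1.39 in Fxr-/- GW4064, 0.14 in Fxr-/- vehicle and 1.20 and 0.08 in Fxr+/+ GW4064. On the scale with the offset of 16, the index of dawn minus day genes was 1.31 and 1.88 in Fxr-/- GW4064, 0.96 in Fxr-/- vehicle, 1.17 and 0.58 in Fxr+/+ GW4064 and 0.20 and -0.20 in Fxr+/+ vehicle. Its dawn side was Arntl divided by 3, since Npas2 and Cry1 gave no reading and added 0 on every array, and its size depends on the offset because Arntl was within the background in Fxr+/+ vehicle. With Arntl as the only dawn gene, chosen after seeing the data, the group means of the index were 2.59 in Fxr-/- GW4064, 1.52 in Fxr-/- vehicle and 1.71 in Fxr+/+ GW4064, in place of 1.60, 0.96 and 0.87 for those groups. With Arntl alone and its signals set to at least 39.5, also chosen after seeing the data, the group means were 2.10 in Fxr-/- GW4064, 0.84 in Fxr-/- vehicle and 1.13 in Fxr+/+ GW4064. The index is a description over chosen genes and has no test.

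Genes of the same phase differed in their changes. Between genotypes Ciart had a change of -1.78 and Per3, another day gene, 0.28, while Nr1d2 had -0.16. Means of Per1 and Per2, the dusk genes, stayed between -0.41 and 0.04 on all arrays. The single dawn gene with a reading did not pass in any comparison. Phase is defined by the time course of a gene, and each group was sampled without a time label, so a shift in phase, a change in amplitude, a change in level and an unequal hour of collection cannot be told apart here. Through main probes, Ciart and Dbp were the clock members called lower with the Fxr-/- label. The dimmer second probe of Nr1d1 also passed narrowly in the average over treatments, but under neither treatment alone. No test of phase itself was possible.

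**Figure D4:**
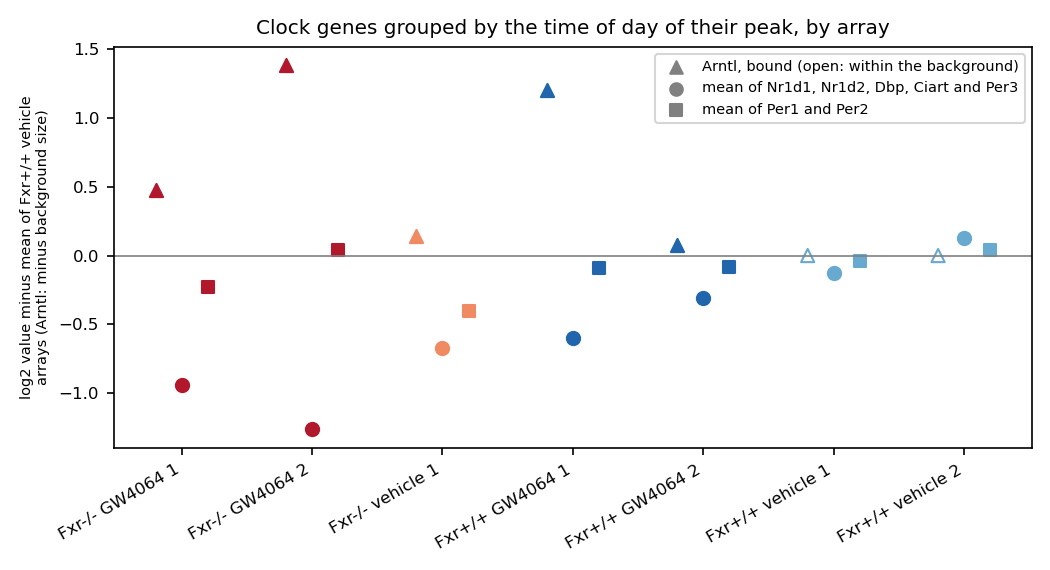
Log2 value on each array, centred on the mean of the Fxr+/+ vehicle arrays, of the mean of the 5 day genes (circles) and of the mean of Per1 and Per2 (squares), with Arntl (triangles) as the log2 distance of its signal above the background size, coloured by group. Circles run down to -1.27 on Fxr-/- GW4064 replicate 2, squares to -0.41 on the Fxr-/- vehicle array, and the triangles of Fxr+/+ vehicle are open because Arntl was within the background there.

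Of 13 further core genes 11 were on the array and 9 were tested. Averaged over treatments 1 of the 9 was lower in Fxr-/- and 0 higher, where 12.6% of all genes were lower and 9.73% higher, with a median of -0.12 against 0.06 over all genes. This was Nfil3, a repressor that competes with DBP for D-boxes, at 418.3 and 372.1 in Fxr-/- GW4064 and 502.2 in Fxr-/- vehicle, against 620.7 and 830.4 in Fxr+/+ GW4064 and 940.7 and 614.9 in Fxr+/+ vehicle (log2 change -0.71, SE 0.206, adjusted p = 0.0446). Under GW4064 alone Nfil3 did not pass (limma adjusted p = 0.0734), nor did it under vehicle. Both Nfil3 and Dbp read lower in all arrays labelled Fxr-/- than in any Fxr+/+ array, an order that 16% of all genes tested showed. Nfil3 normally peaks opposite to Dbp, and what the shared direction means for phase was not tested. Clock itself had an averaged change of -0.11 and Tef, a relative of Dbp, -0.40, and neither passed. GW4064 against vehicle gave 0 of 9 in either genotype.

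Rhythmic output genes of liver were called in both directions between genotypes. Of 15 listed, 13 were on the array and 12 tested, and averaged over treatments 3 were lower and 2 higher in Fxr-/-, where 12.6% of all genes were lower and 9.73% higher, with a median of -0.37 against 0.06 over all genes. Under GW4064 the median of the 12 was 0.02, with 5 below 0, against 0.08 and 42.8% below 0 over all genes. Under vehicle, with 1 array labelled Fxr-/-, their median was -0.75, with 9 below 0. Over all genes it was 0.03 there, with 47.5% below 0. Usp2, a ubiquitin protease and direct ARNTL target, read 1270.2 and 1651 in Fxr-/- GW4064 and 748 in Fxr-/- vehicle, against 2371.7 and 3154.4 in Fxr+/+ GW4064 and 2585.4 and 3168.3 in Fxr+/+ vehicle. The genotypes did not overlap, and the averaged log2 change was -1.41 (SE 0.189, adjusted p = 0.00212). The other lower genes were Gys2, liver glycogen synthase (-0.96, SE 0.256, adjusted p = 0.0342), and Ppp1r3c, a glycogen-targeting subunit of protein phosphatase (-0.76, SE 0.16, adjusted p = 0.0139). The change of Ppp1r3c was -0.37 under GW4064 (adjusted p = 0.27) and -1.15 under vehicle (adjusted p = 0.035). Cdkn1a, a cell cycle inhibitor also induced by stress, was higher (1.31, SE 0.295, adjusted p = 0.0179), as was Avpr1a, the vasopressin receptor of hepatocytes (0.57, SE 0.164, adjusted p = 0.0425). GW4064 against vehicle gave 0 of 12 in either genotype.

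Hormonal, thermal and feeding cues can reset the liver clock, and some genes that read them were called between genotypes in the same arrays. Of 8 glucocorticoid response genes tested, 2 were lower and 1 higher averaged over treatments, and for this and the next lists 12.6% of all genes were lower and 9.73% higher by the same test. Tsc22d3 (GILZ) had -0.83 (SE 0.145, adjusted p = 0.00659), Ddit4, a stress-induced inhibitor of mTORC1, -1.05 (SE 0.236, adjusted p = 0.0179) and Sgk1, a kinase, 1.03 (SE 0.197, adjusted p = 0.00951). Of 8 temperature genes, 1 was higher, the chaperone gene Hspa1a (adjusted p = 0.00667), by at least 1.10-fold, since all 4 Fxr+/+ arrays and 1 of 3 Fxr-/- arrays lay within the background. Fasting genes went both ways, with 1 of 9 higher and 2 lower. Pdk4, a brake on glucose oxidation, read 2133.1 and 2730.1 in Fxr-/- GW4064 and 2679.2 in Fxr-/- vehicle, against 103 and 188.5 in Fxr+/+ GW4064 and 138.7 and 103.8 in Fxr+/+ vehicle (4.13, SE 0.236, adjusted p = 5.23e-05). Igfbp1, an insulin-repressed secreted protein, was at least 1.69-fold lower (adjusted p = 0.000569), its 3 Fxr-/- arrays being within the background. Pck1, a gluconeogenic enzyme, was lower in the average (-0.69, SE 0.168, adjusted p = 0.0234), with -0.0276 under GW4064 (adjusted p = 0.947) and -1.36 under vehicle (adjusted p = 0.0233), where 1 array is labelled Fxr-/-. Of 8 feeding genes, 2 were higher, Acaca (0.75, SE 0.149, adjusted p = 0.0112) and Srebf1 (0.85, SE 0.229, adjusted p = 0.0356), and 1 was lower, Fasn (-0.76, SE 0.179, adjusted p = 0.0206), all of them in fatty acid synthesis. The part of these cues in the clock values was not tested.

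Genes outside these lists with the profile most like Dbp and Arntl were sought among 3848 genes with a log2 range of at least 1 over the 7 arrays, by the root mean square difference of centred log2 values. For Dbp they were Pon1, a serum esterase, C9, a terminal complement component, and F5, coagulation factor V, at 0.159, 0.167 and 0.17. Pon1 read 6044.5 and 4060.5 in Fxr-/- GW4064 and 10312.2 in Fxr-/- vehicle. In Fxr+/+ it read 12384.8 and 11986.4 with GW4064 and 15034.6 and 15859.6 with vehicle. Its order of groups was that of Dbp, which follows from how Pon1 was chosen. For Arntl they were Lamtor1, a lysosomal adaptor, Npb and Dusp14, at 0.214, 0.256 and 0.268. The members and the listed core clock genes were left out of this search, so it could not return them.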

How the data were processed

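Liver RNA was extracted with Trizol, treated with DNase and labelled with biotin for Illumina bead arrays, per the labels' protocols. The authors deposited 1 table with 8 columns. In 7 of them the values are intensity on a linear scale, already background-subtracted (31.5% to 31.6% below 0) and quantile normalized (sorted columns differ by at most 0.5), as the deposited values show. The software behind these steps is not named in the sources used here. The other column, Fxr-/- vehicle replicate 2, was deposited in another, unknown unit (whole numbers from 14 to 139, Spearman correlation with any array at most 0.0559) and entered no fit.

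Probes were named from the platform annotation and checked against RefSeq of GRCm38.p6: 23978 had 1 symbol, 0 several and 1719 none. Signals became log2(max(signal, 0) + 16), which understates changes of dim genes. Probes above their array's median (percentile 50) on at least 2 arrays were kept (13218), and each of 9766 genes was tested through its brightest kept probe. A mean per group was fitted jointly over the 7 arrays with limma 3.58.1 under R 4.3.3 (3 residual and 4.55 prior degrees of freedom), two-sided, with Benjamini-Hochberg adjustment over all genes tested and a threshold of 0.05. The lone Fxr-/- vehicle array was assumed to vary like the others. The fit was tested on simulated data. Of the list genes, those past the threshold in any comparison are named. For Dbp and Arntl, 3 genes with the closest profile were named. Members and lists were chosen with earlier results of these data known. Alternatives changed normalization, offset, filter, probe summary, arrays, spread model and replicate block. Figures were drawn with matplotlib 3.10.9.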

Additional observations from a re-analysis of the deposited data

How the results depend on the processing

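Over the alternatives, 724 results on single clock genes kept their direction and their side of the threshold, 7 lost the threshold, 0 gained it and 15 turned sign. Ciart averaged over treatments passed in all 15 alternatives (adjusted p from 8.79e-05 to 0.025) and Dbp in 14. The results that turned sign had not passed: with the mean of all kept probes the log2 change was 0.0272 for Ciart (GW4064 in Fxr-/-), 0.45 for Nr1d2 (genotype under vehicle) and 0.0467 for Nr1d2 (genotype averaged). Leaving out 1 array at a time gave ranges of -0.16 to 0.28 for Per1 (GW4064 averaged), -0.41 to 0.0260 for Per1 (genotype averaged), -0.24 to 0.63 for Per1 (genotype under GW4064), -0.22 to 0.67 for Arntl (genotype under GW4064), -0.59 to 0.21 for Nr1d2 (GW4064 in Fxr-/-), -0.52 to 0.28 for Nr1d2 (genotype under GW4064) and -0.36 to 0.0433 for Nr1d2 (genotype averaged). The cause was not tested. The Fxr-/- vehicle array could not be left out, and Arntl had no value under the stricter filter, which it failed.

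Counts of all genes past the threshold were 7 for GW4064 in Fxr-/-, 2 for GW4064 in Fxr+/+, 0 for the difference of these effects, 1427 for genotype under GW4064, 669 for genotype under vehicle, 2178 for genotype averaged and 9 for GW4064 averaged. With an offset of 1 they were 55 for GW4064 in Fxr-/-, 0 for GW4064 in Fxr+/+, 12 for the difference, 925 for genotype under GW4064 and 23 for GW4064 averaged, and with an offset of 100 the last was 29. With no filter they were 361 for GW4064 in Fxr-/-, 5 for GW4064 in Fxr+/+, 303 for the difference, 383 for genotype under GW4064 and 346 for GW4064 averaged. The stricter filter, with 6402 genes, gave 0 in Fxr-/-, 1 in Fxr+/+ and 2 averaged for GW4064. The mean of probes gave 2 for GW4064 in Fxr-/-. A trend in the spread gave 14 in Fxr-/-, 6 in Fxr+/+ and 42 averaged for GW4064. Only the groups compared gave 0 in Fxr-/-, 0 in Fxr+/+ and 397 for genotype under vehicle. Leaving out 1 array gave 1 to 3 in Fxr-/-, 0 to 1 in Fxr+/+ and 2 to 8 averaged for GW4064, and 499 to 1383 under GW4064, 405 to 643 under vehicle and 1282 to 1950 averaged for genotype.

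The labels do not say what arrays of the same number share. Their deviations correlated at 0.233, 0.242 and 0.375 between the 3 groups with 2 arrays, a hint from the data over only 2 numbers. The replicate block gave 3 genes in Fxr-/- and 5 in Fxr+/+ for GW4064 and turned Per1 for GW4064 averaged to -0.0726. The antiphase index of Fxr-/- GW4064 averaged 1.60, and 1.11 with an offset of 100. With Arntl as the only dawn gene, chosen after seeing the data, it was 2.59 in Fxr-/- GW4064, 1.52 in Fxr-/- vehicle and 1.71 in Fxr+/+ GW4064. With its signals also set to at least the background size, added likewise, it was 2.10 in Fxr-/- GW4064. Leaving out 1 array gave 1.31 to 1.88 in Fxr-/- GW4064, 0.75 to 1.16 in Fxr-/- vehicle and 0.58 to 1.17 in Fxr+/+ GW4064. Signals near the background limit Arntl, Npas2 and Cry1.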
